A study of Mus musculus with 4 samples.

Results

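The milk protein genes and the transcription factors that switch them on were examined in intact inguinal mammary glands of mice at postnatal day 10. The members were 9 genes: the caseins Csn1s1, Csn2 and Csn3, the whey proteins Wap, Lalba and Ltf, and the regulators Elf5, Stat5a and Stat5b. Every probe set that the platform annotation gives to exactly 1 of these symbols was taken, which gave 15 probe sets of 45037. The series holds 4 Affymetrix perfect-match arrays hybridized after 3′ IVT amplification, 2 from global Mt2-mmp(-/-) knockouts and 2 from Mt2-mmp(+/+) wild-type littermates. Mt2-mmp (gene symbol Mmp15) is a metalloproteinase anchored in the cell membrane. All mice were congenic on C57Bl/6J, and 200 ng of total RNA was labelled with biotin for each array. The labels give neither the sex of the mice nor the number of mice per array nor the deleted exons, and call the arrays of a genotype biological replicates. Mmp15 RNA was not analysed here, so the genotypes are those of the labels.

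Caseins are the main proteins of milk and assemble into micelles that carry calcium phosphate, with κ-casein, the product of Csn3, keeping the micelles in suspension. The whey fraction holds whey acidic protein (Wap), α-lactalbumin (Lalba), which directs galactosyltransferase to make lactose, and the iron-binding protein lactoferrin (Ltf). These genes are strongly transcribed in alveolar cells of pregnancy and lactation. Prolactin acts there through its receptor and the kinase Jak2 to activate the transcription factors Stat5a and Stat5b, and the ETS factor Elf5 specifies alveolar cells. Before puberty the gland is a small ductal tree inside a fat pad, without alveoli.

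STAT5 proteins bind palindromes of the form TTCNNNGAA, and β-casein transcription is the classical example of this control. RefSeq promoter sequences of build GRCm38.p6 matched 8 of the 9 members, all but Csn3, in 11 windows of the 250 bases before a gene start. The palindrome, which reads the same on both strands, occurred in 2 of these 11 windows, those of Csn1s1 and Csn2, and in 7.02% of the 32851 windows of all genes. The 2 windows are shown because the casein genes differed in whether their probe sets rose above background, with capitals marking the palindrome. The Csn1s1 window is chr5:87665958-87666207 on the + strand, with the palindrome starting 100 bases before the gene start. The Csn2 window is chr5:87699426-87699675 on the - strand, with the palindrome starting 93 bases before it.
Csn1s1: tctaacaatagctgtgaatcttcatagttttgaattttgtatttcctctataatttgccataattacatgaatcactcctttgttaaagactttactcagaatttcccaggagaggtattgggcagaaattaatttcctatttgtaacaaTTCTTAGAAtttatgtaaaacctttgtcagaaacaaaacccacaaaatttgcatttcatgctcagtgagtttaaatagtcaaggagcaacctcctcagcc
Csn2: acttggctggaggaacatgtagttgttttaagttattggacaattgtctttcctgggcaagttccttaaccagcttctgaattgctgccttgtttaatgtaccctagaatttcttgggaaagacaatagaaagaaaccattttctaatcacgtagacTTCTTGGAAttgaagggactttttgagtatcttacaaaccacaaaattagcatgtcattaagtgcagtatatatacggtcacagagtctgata
These letters describe the windows and were not tested for binding.

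All values are log2 RMA values as deposited, so a step of 1 is a doubling of signal. Background was read from 23 control probe sets made to match no transcript, 1 for each probe GC content. On the 4 arrays their medians were 3.26 to 3.28, their 95th percentiles 4.49 to 4.56 and their highest values, all from the control of highest GC content, 6.78 to 6.96. A probe set was counted as above the controls when it exceeded the 95th percentile on all 4 arrays. Of the 15 member probe sets 9 did so, against 59.4% of all probe sets, and the other 6 were below it on all 4 arrays, against 35.6% of all. Above the highest control on all 4 arrays were 4 member probe sets, 1 each of Csn2, Csn3, Stat5a and Stat5b, against 29.4% of all probe sets. With the median control plus 1 as the level 10 member probe sets counted as above, against 64.9% of all. Probe sets differ in binding strength and in GC content, so no gene was ranked above another. The level that a probe set shows in RNA of whole gland depends both on the share of cells that carry a transcript and on the amount per cell, which cannot be told apart here.

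**Figure D1:**
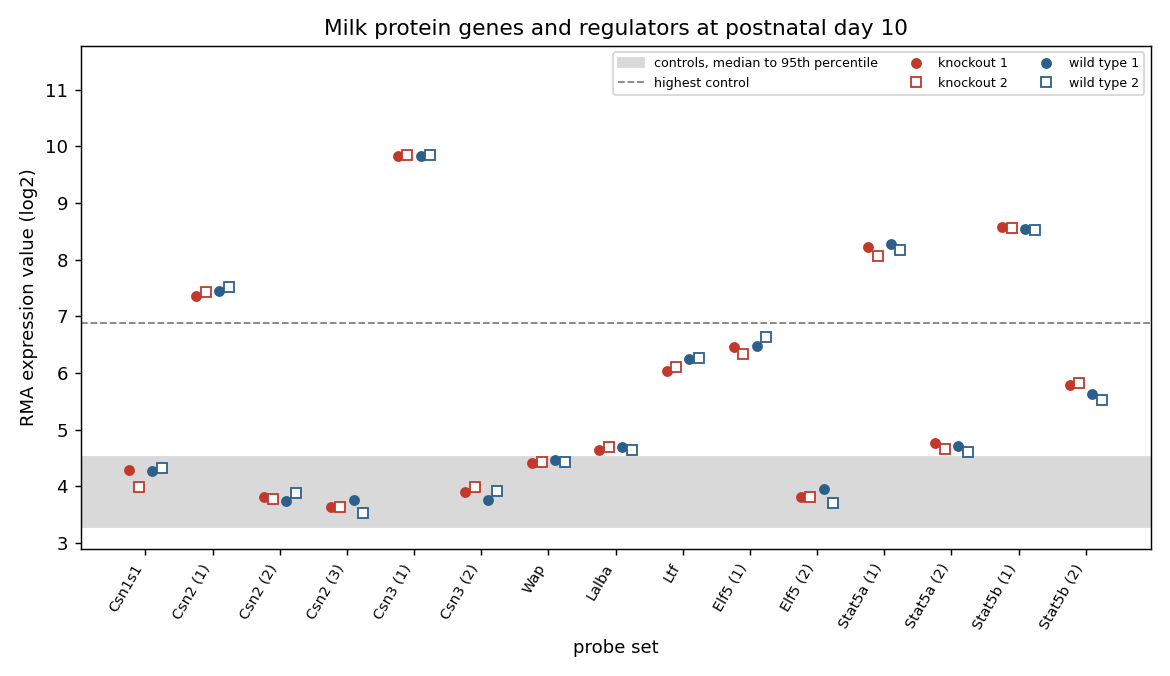
RMA log2 values of the 15 member probe sets on the 4 arrays (red, knockout; blue, wild type; filled circles, replicate 1; open squares, replicate 2), with several probe sets of a gene numbered from the brightest. The grey band runs from the median to the 95th percentile of the nonspecific controls and the dashed line is the highest control, both averaged over the 4 arrays. Wap, Csn1s1 and all but the first probe set of Csn2, Csn3 and Elf5 lie inside the band, and the 4 points of a probe set span at most 0.34.

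Among the caseins, Csn1s1, which encodes an αs1-casein, was not above background. Its single probe set (1420627_PM_a_at) had log2 values of 4.29 and 4.00 in knockouts (replicates 1 and 2, in this order throughout), against 4.27 and 4.33 in wild types. All 4 values lay below the 95th percentile of the controls, and knockout 2 was the lowest.

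Csn2, the β-casein gene, was represented by 3 probe sets that did not agree on its level. The brightest (1438254_PM_at) had log2 values of 7.35 and 7.43 in knockouts and 7.45 and 7.52 in wild types, above the highest control on every array. The platform annotation ties it to an expressed sequence tag, and ties the other 2 to the RefSeq mRNA of Csn2. Those 2 were at background: 1420370_PM_s_at had 3.81 and 3.78 in knockouts and 3.74 and 3.89 in wild types, and 1420369_PM_a_at had 3.64 and 3.64 in knockouts and 3.75 and 3.53 in wild types. The brightest and the dimmest were 3.80 apart on the log2 scale. Which of them follows Csn2 RNA was not tested. In the brightest probe set the knockouts lay just below both wild types. The difference of knockout minus wild type was -0.096 (SE 0.072, 95% interval -0.277 to 0.086, limma adjusted p = 0.847), with means of 7.39 ± 0.054 in knockouts and 7.49 ± 0.047 in wild types (SD, n = 2 arrays each).

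Csn3, the κ-casein gene, also had a bright probe set and a probe set at background. Unlike for Csn2, the platform annotation ties the bright probe set to the RefSeq mRNA, and the dim one to another sequence record. Which of them follows Csn3 RNA was not tested. Probe set 1419735_PM_at had log2 values of 9.83 and 9.84 in knockouts and 9.83 and 9.84 in wild types, brighter than 94.0% to 94.1% of all probe sets. Probe set 1451851_PM_a_at had 3.90 and 3.98 in knockouts and 3.76 and 3.92 in wild types, within the range of the controls. The 2 probe sets were 5.95 apart on the log2 scale, the widest gap among the 5 members with several probe sets. The bright probe set was almost constant, with a range of 0.014 over the 4 arrays. Among 2069 probe sets above the controls whose mean lay within 0.5 of its mean (itself included), 3 had a range that small or smaller. Its difference between genotypes was 0.0026 (SE 0.066, 95% interval -0.162 to 0.167, limma adjusted p = 1), and the interval corresponds to 0.894-fold to 1.12-fold.

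In the RefSeq gene order 8 protein-coding genes run from Csn1s1 to Csn3 on chromosome 5, and 7 of them were measured. Csn2 and Csn3 were the 2 with a probe set above the controls. Between them lie the measured genes Csn1s2a and Csn1s2b, which encode the αs2-like caseins, and Prr27 and Odam, a gene of the enamel organ. Csn1s2a had 4 probe sets and none above the controls, and its brightest had 4.00 and 3.96 in knockouts and 3.93 and 4.00 in wild types. Csn1s2b had 3.59 and 3.48 in knockouts and 3.62 and 3.56 in wild types. Prr27 had 4.34 and 4.40 in knockouts and 4.40 and 4.41 in wild types, and Odam had 3.31 and 3.43 in knockouts and 3.32 and 3.44 in wild types. These 4 neighbours were thus at background in both genotypes. This interval was chosen after the values were seen.

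Of the whey proteins, Wap and Lalba lay on either side of the level that was used. Wap (1448386_PM_a_at) had log2 values of 4.41 and 4.43 in knockouts and 4.46 and 4.43 in wild types, just under the 95th percentile of the controls on every array. Lalba (1418363_PM_at) had 4.65 and 4.69 in knockouts and 4.69 and 4.65 in wild types, just over it on every array. Neither reached the highest control. With the median control plus 1 as the level, Wap also counted as above on all 4 arrays. Lalba differed by 0.0044 between genotypes (SE 0.068, 95% interval -0.166 to 0.175, limma adjusted p = 1).

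Ltf (1450009_PM_at), which besides milk is a product of neutrophil granules, had log2 values of 6.04 and 6.10 in knockouts, against 6.25 and 6.27 in wild types. Both knockouts were below both wild types. The means were 6.07 ± 0.046 in knockouts and 6.26 ± 0.012 in wild types (SD, n = 2 arrays each). The difference was -0.19 (SE 0.068, 95% interval -0.363 to -0.019), a 0.876-fold level in knockouts. It did not pass over all probe sets (limma adjusted p = 0.743). Neutrophil markers were examined beside it: 10 of 13 measured markers were above the controls, and 10 of 13 had a difference below 0, with a median of -0.12. Their mean log2 value was 5.74 and 5.91 in knockouts and 5.97 and 6.01 in wild types, and their summed signal on the linear scale was 1087 to 1305 in knockouts and 1425 to 1472 in wild types. The 4 markers of smallest p, none of which passed, were Stfa2l1, a stefin (-0.73), S100a9, a calcium-binding protein (-0.52), Elane, a granule protease (-0.37), and the receptor Ltb4r1 (-0.16). Other granule genes, named after their values were seen, were mixed. Ngp had 5.77 and 6.43 in knockouts and 5.86 and 5.86 in wild types, a difference of 0.24. Camp had -0.048 and Prtn3 -0.17, both with overlapping genotypes. Lcn2 had -0.074, with both knockouts below both wild types. Mpo, Mmp8 and Cxcr2 were not above the controls on any array. Lower values were not particular to the neutrophil list: all 11 macrophage markers had a difference below 0, with a median of -0.069. The part of neutrophils in the value of Ltf was not tested.

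Elf5 also had 1 probe set above background and 1 within it. Probe set 1419555_PM_at had log2 values of 6.45 and 6.33 in knockouts, against 6.47 and 6.63 in wild types. The knockouts lay below both wild types, with a gap of 0.023 between the nearest arrays, knockout 1 and wild type 1. The difference was -0.16 (SE 0.089, 95% interval -0.387 to 0.060, limma adjusted p = 0.797). Probe set 1419556_PM_at had 3.81 and 3.81 in knockouts and 3.96 and 3.70 in wild types, all below the 95th percentile of the controls.

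Both probe sets of Stat5a and both of Stat5b were above the controls. The brighter Stat5a probe set (1421469_PM_a_at) had log2 values of 8.23 and 8.06 in knockouts and 8.27 and 8.17 in wild types, and the genotypes overlapped. Its difference was -0.074 (SE 0.089, 95% interval -0.297 to 0.150, limma adjusted p = 0.925). The dimmer one (1450259_PM_a_at) had 4.77 and 4.67 in knockouts and 4.72 and 4.61 in wild types, with a difference of 0.056 (SE 0.080, limma adjusted p = 0.943). This dimmer probe set lay below the highest control on every array, and in wild type 2 close to the 95th percentile of the controls (4.61 against 4.56). The differences of the 2 probe sets had opposite signs and intervals that both held 0.

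The brighter Stat5b probe set (1422103_PM_a_at) had log2 values of 8.57 and 8.55 in knockouts and 8.55 and 8.52 in wild types. Its difference was 0.028 (SE 0.066, 95% interval -0.138 to 0.195, limma adjusted p = 0.978). The dimmer one (1422102_PM_a_at) had 5.78 and 5.82 in knockouts, against 5.62 and 5.53 in wild types, with both knockouts higher. Its difference of 0.22 (SE 0.071, 95% interval 0.042 to 0.401) had the smallest p-value of the members and did not pass over all probe sets (limma adjusted p = 0.727). The 2 probe sets of Stat5b thus pointed the same way with sizes of 0.028 and 0.22, and the difference between them was not tested.

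Knockout was compared with wild type to ask how loss of Mt2-mmp changes the gland before puberty. No member probe set passed the limma adjusted p of 0.05, 0 of 15, against 0.00444% of all probe sets. The 2 calls among 45037, both lower in knockouts, were probe sets of Gadd45gip1 and Prdx2, which lie outside the member list and are named after their values were seen. At an unadjusted limma p under 0.05 there were 2 of 15 member probe sets (Ltf and the dimmer one of Stat5b), against 6.65% of all. That count was 0 without knockout 2 or without wild type 2, 1 without knockout 1 (Csn1s1, at background), and 1 without wild type 1 (the dimmer one of Stat5b). It was also 1, the same probe set of Stat5b, with an intensity trend or, chosen after seeing the data, with a block of crossed pairs. With the brightest probe set or the mean of each gene the count was 1 of 9, Ltf. The dimmer probe set of Stat5b was not tested on its own there. The genotypes did not overlap in 6 of 15 member probe sets, against 36.4% of all, a share near the background. Among the 9 above the controls it was 5, against 39.3% of all probe sets above them. The median difference over the 15 was -0.017, against -0.0012 over all probe sets, and the median size without sign was 0.056, against 0.067. Over the 9 above the controls the differences ran from -0.19 to 0.22. With 2 arrays per genotype an unadjusted interval reached 0.164 to 0.224 to either side for these 9, so that changes smaller than this were not resolvable. Larger changes need not pass the adjusted p either: on simulated data 3.6% of log2 changes of 0.5 were called. With so few arrays the smallest p that an exact permutation test allows is 0.333.

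**Figure D2:**
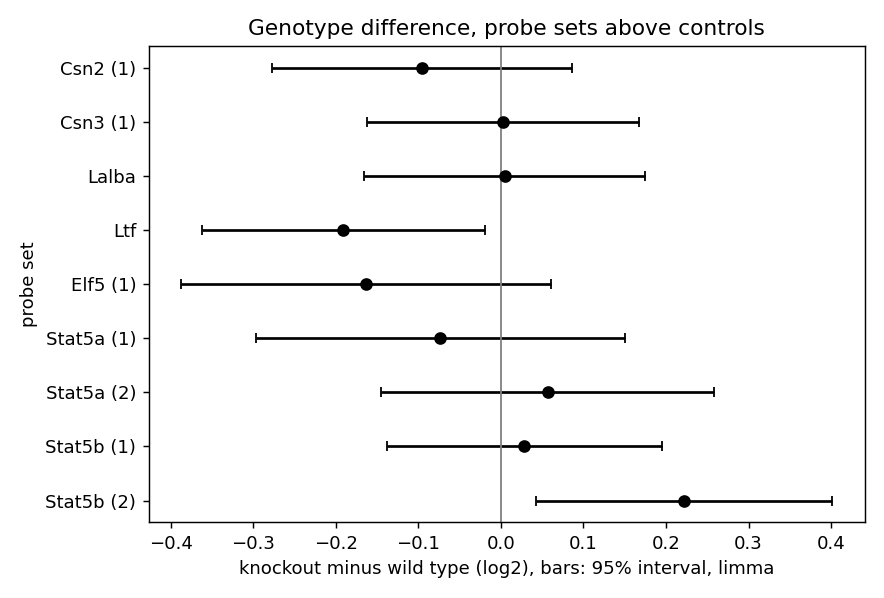
Difference of knockout minus wild type on the log2 scale for the 9 member probe sets above the controls, with 95% intervals from limma (n = 2 arrays per genotype). The points run from -0.19 for Ltf to 0.22 for the dimmer probe set of Stat5b, and the intervals of all but these 2 probe sets include 0.

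Other genes known for milk or its secretion were taken from a fixed list of 27, of which 24 were measured by their brightest probe set. Of these 14 were above the controls, against 70.2% of the brightest probe sets of all 17097 genes. Over all probe sets 0 passed in either direction by limma, against 0.00585% of those genes. At an unadjusted p under 0.05 there were 4, against 7.36% of those genes, and the median difference was 0.017, against -0.0022 over the brightest probe set of every gene. Glycam1, a mucin of the whey fraction, stayed at background with 4.01 and 3.81 in knockouts and 3.82 and 3.84 in wild types. Pigr, the receptor that carries IgA into milk, did so with 3.66 and 3.69 in knockouts and 3.72 and 3.65 in wild types. The other genes at background were the caseins Csn1s2a and Csn1s2b, Cel, Lpo, Folr1, Atp2b2, Olah and Tph1. Olah, the thioesterase that ends medium-chain fatty acid synthesis in the lactating gland, was among the 4 genes of smallest p in the list, and is given no fold because both genotypes were at background.

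Several of the milk genes above the controls are also known from fat cells. Lpl, the lipoprotein lipase, had log2 values of 13.10 and 13.04 in knockouts and 13.00 and 12.96 in wild types, and Cd36, a fatty acid transporter, had 12.18 and 12.33 in knockouts and 12.27 and 12.22 in wild types. Plin2, the coat protein of milk fat globules and lipid droplets, had 10.39 and 10.77 in knockouts and 10.51 and 10.60 in wild types. The list also held Wfdc18, a secreted protease-inhibitor-like protein, with 10.27 and 10.24 in knockouts and 10.43 and 10.10 in wild types, and Mfge8, a milk fat globule protein, with 10.59 and 10.76 in knockouts and 10.58 and 10.55 in wild types. Genotypes overlapped in Cd36, Plin2 and Wfdc18. B4galt1, the galactosyltransferase that works with α-lactalbumin, had 8.85 and 8.78 in knockouts and 8.89 and 8.70 in wild types. Btn1a1, butyrophilin of the milk fat globule membrane, was dim with 4.86 and 4.85 in knockouts and 5.02 and 4.78 in wild types, and its 2 other probe sets were at background. Muc1, Muc15, Saa3 and Slc34a2 were also above the controls, with differences between -0.22 and 0.12.

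The smallest p-values of the list belonged to Trf, Fabp3 and Cidea beside Olah. Trf, transferrin, had log2 values of 11.69 and 11.84 in knockouts, against 12.19 and 12.21 in wild types, a difference of -0.43 (SE 0.080, limma adjusted p = 0.673). Fabp3, a fatty acid binding protein of muscle, brown fat and lactating gland, had 8.03 and 7.32 in knockouts, against 6.27 and 6.86 in wild types, a difference of 1.11 (SE 0.288, limma adjusted p = 0.704). Cidea, a lipid droplet protein of brown fat and lactating gland, had 11.28 and 10.53 in knockouts, against 10.02 and 10.27 in wild types, a difference of 0.76 (SE 0.250, limma adjusted p = 0.727). In these 3 genes the genotypes did not overlap. Adipocyte markers, all 8 above the controls, had a mean of 11.47 and 11.57 in knockouts and 11.19 and 10.89 in wild types and a summed linear signal of 34827 to 37464 in knockouts and 33706 to 35025 in wild types. The median difference of the 8 was 0.027. The higher mean rested on Ucp1 (1.64), Lep (2.19) and, to a lesser degree, Plin4 (0.36). Retn (-0.25), Pparg (-0.10), Adipoq (-0.035), Lipe (0.038) and Fabp4 (0.016) were near 0 or lower. By limma 0 of the 8 passed, and 3 had an unadjusted p under 0.05, against 7.36% of all genes. The part of fat cells in the values of Trf, Fabp3 and Cidea was not tested.

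**Figure D3:**
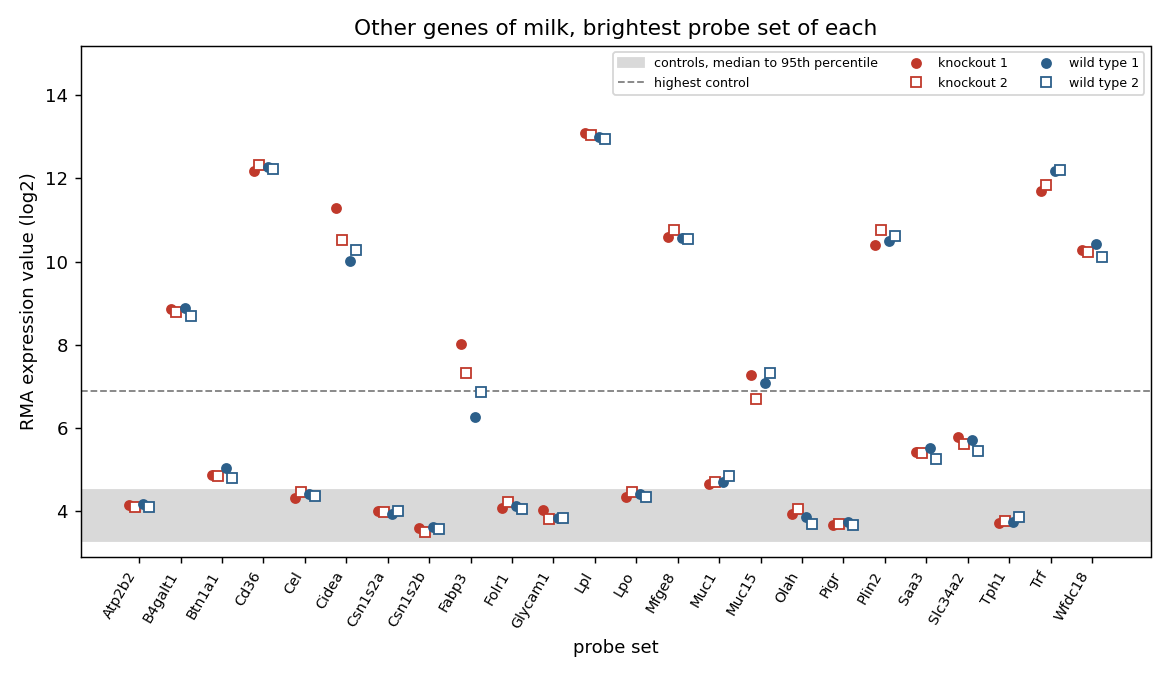
RMA log2 values of the brightest probe set of 24 other genes of milk on the 4 arrays, with the same symbols, band and line as in the plot of the members. Csn1s2a, Csn1s2b, Glycam1 and Pigr lie in the band of the controls, while Lpl, Cd36, Trf, Mfge8, Plin2 and Wfdc18 lie far above it.

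The pathway that feeds STAT5 was largely measurable at this age. Of 20 genes fixed for prolactin and STAT5 signalling 18 were measured, 15 of them above the controls. By limma 0 passed in either direction, 1 had an unadjusted p under 0.05 (against the 7.36% of all genes), and the median difference was -0.0065. Jak2 had log2 values of 8.43 and 8.44 in knockouts and 8.56 and 8.45 in wild types, and Ghr, the growth hormone receptor that also signals to STAT5, had 11.54 and 11.75 in knockouts and 11.67 and 11.46 in wild types. The hormone gene Prl, made mainly in the pituitary, was at background with 3.87 and 3.99 in knockouts and 3.97 and 3.95 in wild types. Jak2, Ghr and Prl were named after their values were seen, for their place in the pathway. The genes of smallest p were Socs2, Stat6, Nr3c1 and Ptpn11. Socs2, a STAT5-induced inhibitor of growth hormone signalling, had 8.74 and 8.72 in knockouts, against 9.20 and 9.05 in wild types, a difference of -0.39 (SE 0.079, limma adjusted p = 0.697). Its 4 probe sets, 3 of them above the controls, ran from -0.39 to -0.0081. Stat6 had a difference of 0.16, Nr3c1, the glucocorticoid receptor, -0.15, and Ptpn11, a phosphatase, 0.098, while the other probe set of Ptpn11, not above the controls, had -0.19. The 5 probe sets of Nr3c1, 3 of them above the controls, ran from -0.15 to 0.

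Genes known as STAT5 targets had differences of both signs. The list mixes genes that STAT5 induces with Bcl6, which it holds down in several tissues. The signs alone therefore do not measure STAT5 activity, which was not tested. Of 12 listed 11 were measured, 9 above the controls, 4 with a difference above 0 and 7 below. By limma 0 passed in either direction, 2 had an unadjusted p under 0.05 (7.36% of all genes did), and the median was -0.024. The 2 were Bcl6 and Socs2, and Socs2, described above, had a difference of -0.39. Bcl6, a transcriptional repressor that STAT5 holds down in several tissues, had log2 values of 8.91 and 8.51 in knockouts, against 7.88 and 7.73 in wild types. Its difference was 0.91 (SE 0.148, limma adjusted p = 0.653), and its other probe set had 0.41. Cish, an inhibitor induced by STAT5, had 8.33 and 8.41 in knockouts and 8.27 and 8.33 in wild types, with overlap. Cish was named after its values were seen. Pim1, a kinase, had a difference of 0.18, with both knockouts higher than both wild types, and Il2ra was at background.

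Of 22 regulators of the alveolar and luminal lineages 21 were measured, 17 above the controls. By limma 0 passed in either direction, 2 had an unadjusted p under 0.05 (7.36% of all genes did), and the median difference was -0.011. Cebpb, a transcription factor of adipocytes that is also needed for alveolar development, had log2 values of 11.10 and 11.12 in knockouts, against 10.58 and 10.61 in wild types, a difference of 0.51 (SE 0.066, limma adjusted p = 0.512). Its 3 probe sets ran from 0.076 to 0.63. Foxa1, a factor of hormone-sensing luminal cells, had 8.58 and 8.61 in knockouts, against 9.09 and 8.89 in wild types, a difference of -0.39 (SE 0.089, limma adjusted p = 0.697). Nfia, a nuclear factor of the family that binds milk gene promoters, had -0.18. Its 6 probe sets, 5 of them above the controls, ran from -0.30 to -0.16. Pgr, the progesterone receptor, exceeded the 95th percentile of the controls on 3 of 4 arrays.

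The tissue was checked on epithelial markers, since milk genes belong to that compartment. Of 21 luminal markers 18 were above the controls, and 17 had a difference below 0, with a median of -0.10. Their mean was 7.11 and 7.03 in knockouts and 7.22 and 7.21 in wild types, and their summed linear signal was 4569 to 4907 in knockouts and 5294 to 5552 in wild types. The luminal markers of smallest p were the adhesion molecule Epcam (-0.31), Foxa1 (-0.39), the tight-junction gene Cldn3 (-0.24) and the keratin Krt8 (-0.33). The second probe sets of Epcam, Cldn3 and Krt8 had -0.049, -0.090 and -0.31. All 12 basal markers were above the controls and below 0, with a median of -0.17, a mean of 7.69 and 7.57 in knockouts and 7.85 and 7.87 in wild types, and a summed signal of 6779 to 6853 in knockouts and 7022 to 7564 in wild types. The basal markers of smallest p were the oxytocin receptor Oxtr (-0.36), the keratin Krt14 (-0.27), the laminin chain Lama3 (-0.22) and the collagen Col17a1 (-0.29). The second probe sets of Oxtr, Krt14 and Lama3 had -0.076, -0.14 and -0.00043, and those of Oxtr and Lama3 were not above the controls. By limma 0 of these markers passed over all probe sets, and 5 of 21 luminal and 3 of 12 basal ones had an unadjusted p under 0.05, against 7.36% of all genes. Aldh1a3 was among the luminal markers above 0, and its 3 probe sets ran from 0.13 to 0.21. Krt5 had 7.49 and 7.03 in knockouts and 7.20 and 7.69 in wild types, and Cdh1 had 8.58 and 8.04 against 8.47 and 8.68. In both genes knockout 1 and wild type 2 were highest, the arrays also high in hair follicle markers below. Krt8 and Epcam did not share that order. The part of skin in these lists was not tested. Ltf and the brighter probe set of Elf5 were lower in knockouts as these lists were, and the part of the epithelial share in them was not tested.

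Hair follicle markers differed between the arrays of a genotype. Of 18 markers of epidermis and hair follicle 5 were above the controls on all 4 arrays, with a mean of 6.90 and 4.47 in knockouts and 4.47 and 6.75 in wild types, and a summed signal of 716 to 6194 in knockouts and 641 to 5429 in wild types. Tchh, trichohyalin of the hair root sheath, had 10.74 and 3.49 in knockouts and 4.03 and 10.37 in wild types, so that knockout 1 and wild type 2 were high. In 10 of the 18 markers, among them the hair follicle keratins Krt25, Krt27 and Krt71, both these arrays exceeded both others by over 1. The other 8 included the epidermal genes Krt10, with 7.16 and 7.22 in knockouts and 7.20 and 7.17 in wild types, and Krtdap, with 7.80 and 8.08 in knockouts and 7.64 and 7.58 in wild types. Krtdap, the marker of smallest p in the list, did not pass (limma adjusted p = 0.729). Krt1, Krt34 and Ivl, next in the list, had differences of 0.062, 0.39 and 0.21, and Krt1 was at background. Apart from these 4, the markers here were named after their values were seen. The brighter probe set of Elf5 was the higher of its genotype on the same 2 arrays, by 0.12 in knockouts and 0.16 in wild types. Stat5a went the same way in knockouts (8.23 in knockout 1, 8.06 in knockout 2) and the opposite way in wild types (8.17 in wild type 2, 8.27 in wild type 1). The bright probe set of Csn3 stayed within 0.014 across these arrays. The part of these markers in the values of Elf5 was not tested.

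**Figure D4:**
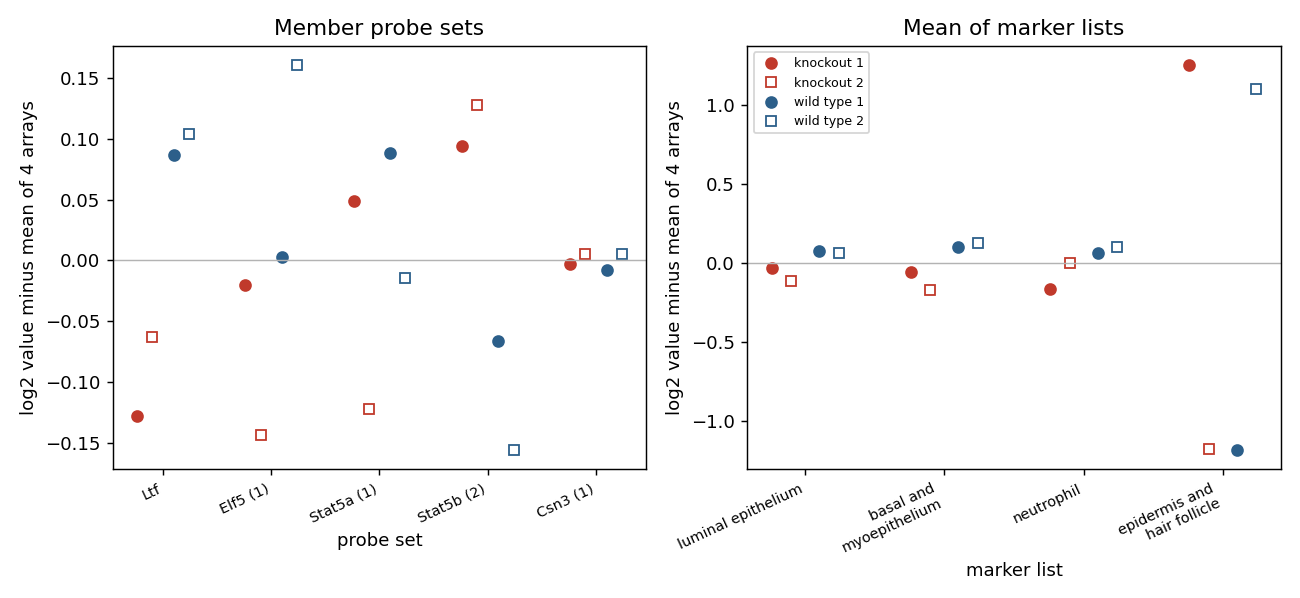
Log2 value on each array minus the mean of the 4 arrays, for 5 member probe sets (left) and for the mean of 4 marker lists (right), with the panels on different vertical scales and the symbols of the other plots. Ltf and Elf5 lie lower in both knockouts, as do the luminal, basal and neutrophil lists, the second probe set of Stat5b lies higher, and the epidermis and hair follicle list separates knockout 1 and wild type 2 from the other 2 arrays.

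The member probe sets above the controls with the widest range over the 4 arrays were the brighter one of Elf5 (0.30) and the dimmer one of Stat5b (0.28). Their profiles, centred on the mean of each probe set, were set against those of 12009 genes by root mean square distance over the 4 arrays. Nearest to Elf5 were Efcab2 (0.0076 on the log2 scale), Trpm7 (0.0084) and Slc25a28 (0.0095). Nearest to Stat5b were Susd5 (0.0071), Ptgis (0.011) and Klc1 (0.013). With 4 arrays many genes have near profiles, and these names describe likeness only.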

How the data were processed

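The deposited log2 values, 1 per probe set and array, were made by the authors with RMA (affy package), as the submitters' processing notes name it, and no version is stated. RMA subtracts background, equalises the arrays and summarises the probes, which compresses differences of dim probe sets. Of 45141 probe sets 104 array controls were set aside and 45037 were tested. The platform annotation gave 1 symbol to 28898, several to 551 and did not list 15588. The symbols of all 9 members matched RefSeq of GRCm38.p6 by gene ID.

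Knockout was compared with wild type by limma 3.58.1 (lmFit, then eBayes; R 4.3.3). The test was two-sided, had no covariate and no filter, and used Benjamini-Hochberg adjustment over all 45037 probe sets at 0.05. The 2 residual degrees of freedom gained 3.43 prior ones, and the median SE was 0.081. For arrays, their number limits the precision. P-values measure the spread between these arrays, since the labels do not say how many mice each holds. Lists use the brightest probe set of each gene, and named genes are all members, the 4 smallest p-values of each list described in the text and, in the list of other milk genes, all above the controls. Other genes of lists and markers were named after their values were seen. The members and lists were chosen with earlier results of these data known. Marker lists whose genes are not named in the text were macrophage, lymphocyte, skeletal muscle, endothelium and fibroblast. In this order they had 11, 8, 12, 9 and 8 measured genes and median differences of -0.069, -0.0084, 0.22, 0.15 and 0.059.

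On simulated data with 200 of 45037 probe sets changed in each of 5 runs, the knockout against wild type fit called 3.6% of log2 changes of 0.5, but 83.6% of those of 1 and 96% of those of 1.5. Replicate numbers of the titles are shared by the genotypes. The deviations of knockout 1 and wild type 1 from their genotype means correlated at -0.295 across all probe sets. Across probe sets above the controls on 4 arrays the correlation was -0.074. With 2 arrays per genotype this cannot show whether the numbers pair the arrays, and the main fit left them unpaired. Alternatives were another normalization or centring, a filter, gene summaries, other variance models, the replicate block and leaving out each array.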

Additional observations from a re-analysis of the deposited data

How the results depend on the processing

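Under all 14 alternatives 0 member probe sets passed (limma), and the smallest limma adjusted p of a member lay between 0.557 and 1.00. The count of all probe sets called by limma, 2 as reported, was 5 with quantile normalization, median centring, an intensity trend or robust variances, 1 with the brightest probe set of each gene, 0 with the mean of the probe sets of each gene, and 0 to 5 with 1 array left out. With the replicate number as a block it was 0 (3131 at an unadjusted p under 0.05), and with the crossed pairing, chosen after seeing the data, it was 0 (2558 at an unadjusted p under 0.05); the block changed no call of a member. The count of member probe sets above the controls, 9 as reported, was 4 with the highest control as the level, 10 with the median control plus 1, and 9 with quantile normalization, with any array left out or with 1 array required. The filter, the brightest probe set of each gene, probe sets with 1 symbol, the variance models and both blocks leave the log2 difference of a probe set unchanged. Their values could not turn and are counted among those that kept their direction. Leaving out 1 array likewise could not turn the 5 probe sets whose genotypes did not overlap, and those values are counted there too. The count that kept direction was thus in large part fixed in advance and does not measure stability. The mean of the probe sets of a gene is counted under its brightest probe set, although it averages in the dimmer ones. Of 120 alternative values for the 9 member probe sets above the controls 112 kept their direction and 8 turned. Those were values near 0: median centring gave -0.0032 for Csn3 and -0.0014 for Lalba, and with 1 array left out the values ran from -0.0042 to 0.0095 for Csn3, from -0.017 to 0.025 for Lalba, from -0.159 to 0.012 for the brighter and from -0.00010 to 0.113 for the dimmer probe set of Stat5a. The cause was not tested. Leave-one-out values ran from -0.223 to -0.158 for Ltf, from -0.242 to -0.085 for Elf5 and from 0.177 to 0.266 for the dimmer probe set of Stat5b, where the genotype left with a lone array borrows its spread from the other.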
